A study of Mus musculus with 2 samples.

Results

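Fatty acid oxidation was described here through 35 genes that act in mitochondria and peroxisomes. They were taken by gene symbol from a list of names, and all 35 were found among the 19465 genes of the files. The rule uses names and no measured value, although the list was chosen with earlier results of these data known. Of the 35, 17 code for proteins of mitochondria, 11 for proteins of peroxisomes, and 7 for proteins found in both or in other membranes. The levels came from spatial transcriptomics (ST) of formalin-fixed, paraffin-embedded mouse liver by 10x Visium, an assay in which probe pairs bind the RNA of a section and are counted as unique molecular identifiers (UMIs) at barcoded spots. The study supplied 1 liver section without AEG-1 in myeloid cells (AEG-1ΔMAC, spelled AEG-1DMAC in the labels, the knockout section below) and 1 from a control without that deletion (AEG-1fl/fl, the floxed section below), so no result has a replicate, and no test between the genotypes was possible. The AEG-1ΔMAC mice carry the floxed alleles together with Cre under control of Lyz2, which acts in macrophages and other myeloid cells and not in hepatocytes, and the AEG-1fl/fl mice carry the floxed alleles without Cre. Both are on the C57BL/6/J background, and the livers were taken at 27 weeks of age. According to the labels both mice ate a high-fat, high-sugar diet (HF/HSD) that began at 7 weeks, whereas the study's own text places these sections in its control diet arm of 20 weeks, so the diet of these 2 mice cannot be settled here. The labels give no sex for either section.

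Fatty acids are first joined to coenzyme A by acyl-CoA synthetases. Long chains then enter mitochondria through a carnitine shuttle, and a repeated cycle of dehydrogenation, hydration, a second dehydrogenation and thiolysis cuts them into acetyl-CoA. Electrons leave the cycle through the electron transfer flavoprotein. Peroxisomes run a similar cycle on very long, branched and dicarboxylic chains, with their own ABC transporters, acyl-CoA oxidases, a multifunctional enzyme and thiolases, and pass shortened chains on as carnitine esters. In liver, many of these genes are targets of the nuclear receptor PPAR-alpha.

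The knockout library held 45453286 UMIs over 2140 kept spots, with a median of 20929.5 UMIs per spot, and the floxed library held 50322850 UMIs over 2540 kept spots, with a median of 18285. A spot is a small region that holds several cells, so fewer cells of a type and less RNA per cell cannot be told apart. The libraries shared 1776 spot barcodes, which are fixed positions of the array, and of 200 shared barcodes compared, 0 had the same counts. Levels are given in CPM, the UMIs of a gene scaled to a common library total, with an exact Poisson 95% interval where one is printed, and ratios carry an exact conditional binomial 95% interval. Both kinds of interval hold the error of counting alone and leave out differences among animals and sections. Mtdh, the gene of AEG-1, stood at 66.3 CPM in the knockout and 60.2 CPM in the floxed section, where a deletion in a minority cell type cannot be checked. Lyz2, the gene whose promoter drives Cre, had 25 and 41 UMIs. The sections were liver by their hepatocyte markers, all 6 of which were detected in both, although Alb took 8.80% of the UMIs in the knockout and 14.2% in the floxed section. Over 6933 genes, those whose mean was 10 CPM or more, the median log2 ratio of knockout over floxed was 0.15. Ratios are therefore given relative to that median unless called plain.

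Most of the oxidation genes lay close to the median gene, and the 4 that lay at least 1.5-fold away were lower in the knockout. A gene was called when it was at least 1.5-fold away from the median of all genes with its interval on the same side. By this rule 4 of the 35 were lower in the knockout, against 2.77% of all genes tested, and 0 of 35 were higher, against 2.38%. The 4 were Abcd2, a peroxisomal transporter, Crat, a carnitine acyltransferase, Ehhadh, the peroxisomal multifunctional enzyme, and Acsl5, an acyl-CoA synthetase. Of the 35, 34 had at least 10 CPM in each library, and Abcd2 passed the minimum only through the floxed section. The median over the 35 was -0.06 on the log2 scale, beside quartiles of -0.12 and 0.12 over all genes, and 26 of the 35 lay within 0.25 of the median gene. The direction of a gene near 0 depends on the scaling. With plain CPM 27 of the 35 were higher in the knockout, where 78.3% of all genes were. With TMM factors 14 were higher, against 55.2% of all genes, and with median-of-ratios factors 13, against 53.9%. Without the 50 most abundant genes 13 were higher, against 50.9%, and relative to the median gene also 13.

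**Figure D1:**
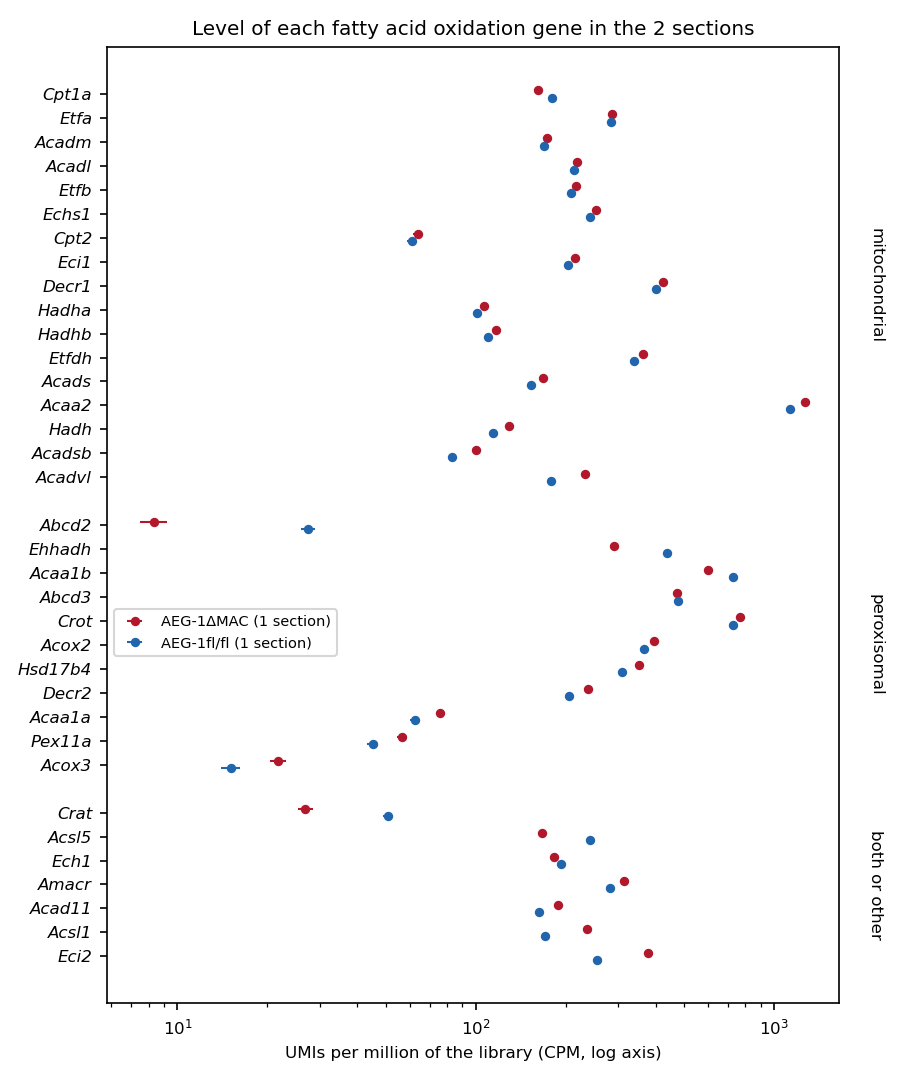
Level of each of the 35 genes in CPM on a log axis, with exact Poisson 95% intervals, in the AEG-1ΔMAC section (red) and the AEG-1fl/fl section (blue), grouped by compartment and sorted by genotype ratio. The points of most genes lie near each other, whereas Abcd2 stands at 8.32 and 27.5 CPM and Crat at 26.8 and 50.8 CPM. Levels of different genes are not comparable, because probes differ.

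**Figure D2:**
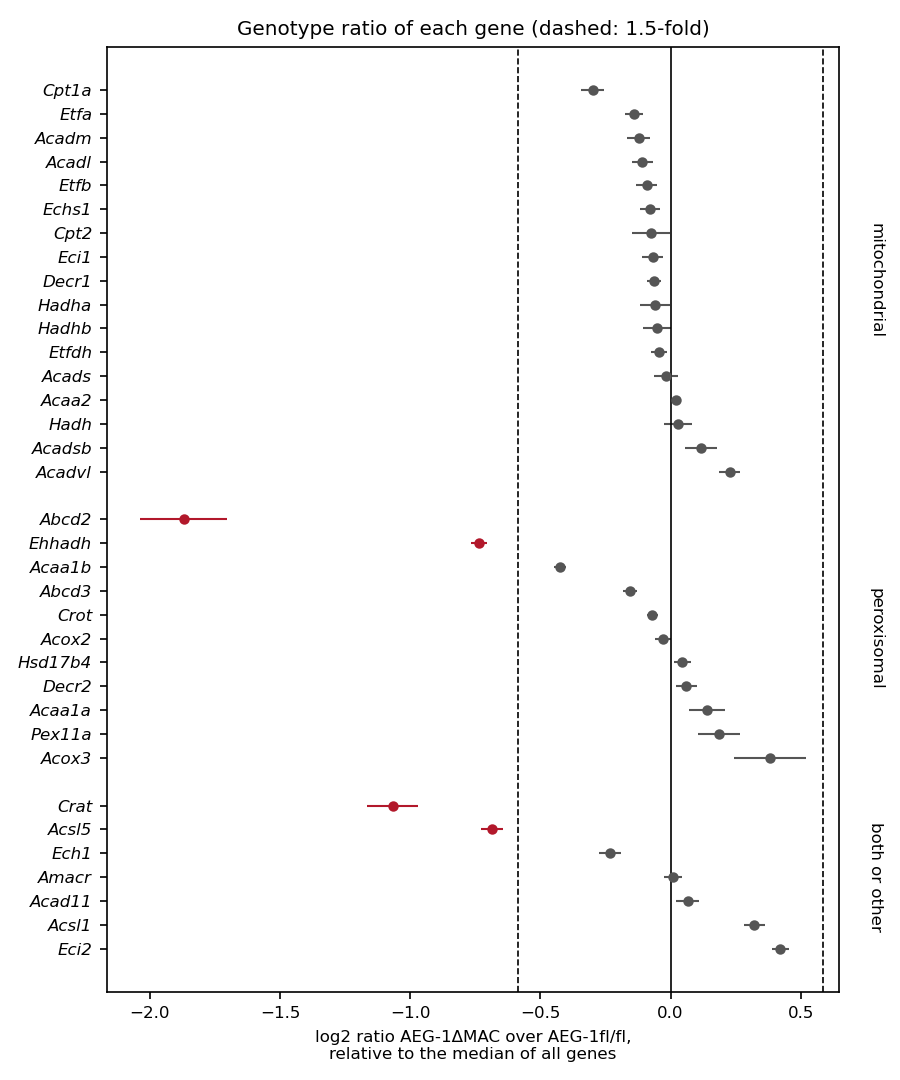
Log2 ratio of the CPM of AEG-1ΔMAC to that of AEG-1fl/fl, relative to the median of all genes, for each gene with its 95% counting interval; dashed lines mark 1.5-fold. The 4 red points, Abcd2, Ehhadh, Crat and Acsl5, lie left of the lower line, and no point lies right of the upper line.

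None of the mitochondrial genes stood apart between the sections by the 1.5-fold rule. Of the 17, 0 were called, near the shares over all genes, of which 2.77% were called lower and 2.38% higher. On the log2 scale, 16 of the 17 lay within 0.25 of the median gene. The lowest was Cpt1a, carnitine palmitoyltransferase 1A of the outer membrane, which controls the entry of long chains. Cpt1a stood at 161 CPM (7325 UMIs) in the knockout against 179 CPM (9020 UMIs) in the floxed section, a log2 ratio of -0.30 (-0.34 to -0.25). In plain CPM it was lower in each of 10 equal groups of spots ordered from zone 1 to zone 3. The highest was Acadvl, the very long chain acyl-CoA dehydrogenase of the first step inside mitochondria, at 232 CPM in the knockout against 179 CPM in the floxed section, a log2 ratio of 0.23 (0.19 to 0.27). In plain CPM, where 78.3% of all genes were higher over the whole section, Acadvl was higher in the knockout in all 10 groups of spots. Between these 2 lay Cpt2, which returns acyl groups to coenzyme A inside mitochondria, and the shorter-chain dehydrogenases Acadl, Acadm, Acads and Acadsb. The trifunctional protein subunits Hadha and Hadhb, the hydratase Echs1, the dehydrogenase Hadh and the thiolase Acaa2 lay there too. So did Eci1 and Decr1, which handle double bonds, and Etfa, Etfb and Etfdh, which carry the electrons to the respiratory chain. These 15 genes ran from -0.14 for Etfa to 0.12 for Acadsb. Hadha and Hadhb, whose products form 1 complex, stood at -0.06 and -0.05, and Etfa and Etfb, the subunits of the flavoprotein, at -0.14 and -0.09.

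Promoter sequence was available from RefSeq for 29 of the 35 genes, as 32 windows of 250 bases before to 50 bases after a transcription start. Those of Cpt1a and Acadvl are shown as the lowest and highest mitochondrial ratio, and those of Ehhadh and Eci2 as a called peroxisomal gene and the highest ratio of all 35. Capitals mark the hexamer AGGTCA, or TGACCT where it lies on the other strand, which is the core sequence bound by many nuclear receptors. All windows are on GRCm38.p6 and are written from 5′ to 3′ on the strand of the gene, Cpt1a at chr19:3323051-3323350 on the plus strand, Acadvl at chr11:70015379-70015678, Ehhadh at chr16:21787785-21788084 and Eci2 at chr13:34994095-34994394 on the minus strand.
Cpt1a: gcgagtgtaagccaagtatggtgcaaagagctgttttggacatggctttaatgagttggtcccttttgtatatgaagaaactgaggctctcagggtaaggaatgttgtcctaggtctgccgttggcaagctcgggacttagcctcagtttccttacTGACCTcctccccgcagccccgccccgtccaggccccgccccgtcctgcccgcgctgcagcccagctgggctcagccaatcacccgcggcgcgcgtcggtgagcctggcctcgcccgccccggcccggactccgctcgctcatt
Acadvl: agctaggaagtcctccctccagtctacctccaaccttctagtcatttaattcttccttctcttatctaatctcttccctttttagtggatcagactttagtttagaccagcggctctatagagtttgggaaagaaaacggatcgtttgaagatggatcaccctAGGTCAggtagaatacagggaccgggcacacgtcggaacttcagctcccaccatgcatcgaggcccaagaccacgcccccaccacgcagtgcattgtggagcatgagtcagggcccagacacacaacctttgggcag
Ehhadh: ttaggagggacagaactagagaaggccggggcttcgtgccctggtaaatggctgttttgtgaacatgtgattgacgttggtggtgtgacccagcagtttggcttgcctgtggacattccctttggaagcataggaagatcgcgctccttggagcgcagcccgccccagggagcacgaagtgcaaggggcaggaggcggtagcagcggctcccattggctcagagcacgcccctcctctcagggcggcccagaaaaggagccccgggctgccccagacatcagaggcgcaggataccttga
Eci2: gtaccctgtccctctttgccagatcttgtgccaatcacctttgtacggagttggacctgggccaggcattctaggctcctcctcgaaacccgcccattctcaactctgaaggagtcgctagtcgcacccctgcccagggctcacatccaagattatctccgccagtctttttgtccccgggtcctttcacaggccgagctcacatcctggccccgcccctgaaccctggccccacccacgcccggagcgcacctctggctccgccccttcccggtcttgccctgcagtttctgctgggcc

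The hexamer was searched on both strands. It lay in 4 of the 32 windows (12.5%), those of Acadm, Acadvl, Cpt1a and Echs1, and in 16.3% of 32851 windows of all genes. The first base of the match was at position -94 from the start in Cpt1a and at -87 in Acadvl, so the genes with the lowest and the highest mitochondrial ratio both held it. The longer pattern AGGNCANAGGNCA, a direct repeat spaced by 1 base that can overlap the hexamer, lay in 0 of the 32 windows and in 0.381% of all windows. A match describes letters and is not evidence of binding. The windows of the oxidation genes had a median G+C content of 60.5%, against 52.7% over all windows, and ranged from 43.7% to 76.3%.

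The peroxisomal genes spread more widely, with 2 of 11 called lower in the knockout and 7 of 11 within 0.25 of the median gene. Abcd2 codes for an ABC transporter that carries very long chain acyl-CoA into peroxisomes. The gene lies on chromosome 15 from 91145871 to 91191799 on the minus strand (GRCm38). It had 378 UMIs (8.32 CPM) in the knockout and 1382 UMIs (27.5 CPM) in the floxed section. The plain ratio was 3.30-fold lower in the knockout, and relative to the median gene the log2 ratio was -1.87 (-2.04 to -1.70). Only 0.101% of all genes tested had a lower ratio. In plain CPM the level was lower in all 10 groups of spots, from 2.33-fold to 6.56-fold. Adipocyte markers, of a cell type known to express Abcd2, summed to 1.23 CPM in the knockout and 1.21 CPM in the floxed section, with 1 of 5 at 0 in each. Abcd3, the other transporter of the list, stood at 474 CPM in the knockout against 476 CPM in the floxed section, a log2 ratio of -0.15 (-0.18 to -0.13).

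Ehhadh carries out hydration and the second dehydrogenation in peroxisomes and is needed for dicarboxylic chains. Its gene lies on chromosome 16 from 21761287 to 21787807 on the minus strand. It stood at 291 CPM (13224 UMIs) in the knockout against 438 CPM (22047 UMIs) in the floxed section, a log2 ratio of -0.74 (-0.77 to -0.71), and in plain CPM was lower in all 10 groups of spots. Hsd17b4, the second multifunctional enzyme of peroxisomes, which acts mainly on branched and very long chains, had a log2 ratio of 0.05 (0.01 to 0.08). The pair of enzymes for the same step therefore had different ratios. The peroxisomal thiolases Acaa1a and Acaa1b also differed. Acaa1b stood at 601 CPM in the knockout against 729 CPM in the floxed section, a log2 ratio of -0.43 (-0.45 to -0.40), and in plain CPM was lower in all 10 groups of spots, short of the 1.5-fold rule. Acaa1a stood at 76.0 CPM in the knockout and 62.3 CPM in the floxed section, a log2 ratio of 0.14 (0.07 to 0.21). Both values are uncertain, because the 2 genes are near-identical neighbours on chromosome 9 and their probes may not separate them.

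The remaining peroxisomal genes lay nearer the median or above it. The highest was Acox3, a branched-chain acyl-CoA oxidase, with 988 UMIs (21.7 CPM) in the knockout and 759 UMIs (15.1 CPM) in the floxed section, a log2 ratio of 0.38 (0.24 to 0.52). Pex11a, which takes part in peroxisome division, followed at 0.19 (0.10 to 0.27). Crot, which makes the carnitine esters that leave peroxisomes, Acox2, the oxidase for bile acid precursors, and Decr2, a reductase for double bonds, ran from -0.07 to 0.06.

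Among the 7 genes whose proteins occur in both organelles or in other membranes, the ratios went both ways. Crat codes for carnitine acetyltransferase, which moves short acyl groups between carnitine and coenzyme A. The gene lies on chromosome 2 from 30400471 to 30415813 on the minus strand. Crat had 1219 UMIs (26.8 CPM) in the knockout and 2556 UMIs (50.8 CPM) in the floxed section, a log2 ratio of -1.07 (-1.17 to -0.97) and 1.89-fold lower before centring on the median gene. Acsl5, an acyl-CoA synthetase of the endoplasmic reticulum and mitochondrial membranes on chromosome 19 from 55251938 to 55297720 on the plus strand, stood at 166 CPM in the knockout against 242 CPM in the floxed section, a log2 ratio of -0.69 (-0.73 to -0.65). With plain CPM its log2 ratio was -0.54, short of 1.5-fold, so its call depends on the scaling. Acsl1, the other synthetase of the list, had the opposite direction under each scaling, at 236 CPM in the knockout against 170 CPM in the floxed section, a log2 ratio of 0.32 (0.28 to 0.36). The highest ratio of all 35 genes was that of Eci2, an isomerase that repositions double bonds, at 377 CPM in the knockout against 254 CPM in the floxed section, a log2 ratio of 0.42 (0.39 to 0.45). Ech1, which also rearranges double bonds, stood at -0.23, and Acad11, a dehydrogenase of long chains, and Amacr, a racemase of branched chains, at 0.07 and 0.01.

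Summed over genes, the 11 peroxisomal genes were lower relative to the 17 mitochondrial genes in the knockout. A list of further peroxisomal genes, given below, was not lower in sum. The 17 mitochondrial genes summed to 4489 CPM in the knockout against 4164 CPM in the floxed section, a log2 ratio of -0.04 (-0.05 to -0.03). The 11 peroxisomal genes summed to 3280 CPM in the knockout against 3400 CPM in the floxed section, a log2 ratio of -0.20 (-0.21 to -0.19). With plain CPM these log2 ratios were 0.11 and -0.05. Their UMIs came to 0.731 per mitochondrial UMI in the knockout and 0.817 in the floxed section, a log2 difference of -0.16 (-0.17 to -0.15) that no scaling of the libraries can alter. The same difference, taken part by part from zone 1 to zone 3, was -0.18, -0.14 and -0.16. It rested on Ehhadh and Acaa1b, since without these 2 genes it was -0.01 and the peroxisomal sum stood at -0.05. The medians over genes, -0.06 for the mitochondrial and -0.03 for the peroxisomal set, did not show it. Sums weight each gene by its probe counts, so they describe the measured RNA of a list and not the capacity of an organelle.

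Zonation was read within each section. Liver lobules run from zone 1 around the portal vessels to zone 3 around the central vein, and the spots of each library were ranked by the mean of Cyp2e1, Cyp1a2 and Oat, which mark zone 3, minus that of 6 genes that mark zone 1 (Arg1, Cyp2f2, Gls2, Hal, Hsd17b13 and Pck1), then divided into 3 equal parts. None of these markers is among the 35 genes. Zonation is the log2 ratio of CPM in the zone 3 part over the zone 1 part. Oxidation genes were higher toward zone 3 in both sections. In each section 34 of 35 had a ratio above 0, where 69.0% of all genes did in the knockout and 67.7% in the floxed section. The median over the 35 was 0.26 in the knockout and 0.33 in the floxed section, beside medians of 0.09 and 0.08 over all genes. The exceptions were Abcd2 in the knockout and, in the floxed section, Acadsb, the dehydrogenase of short branched chains, at -0.09 (-0.19 to 0.02). The interval lay above 0 for 31 of 35 in the knockout, against 31.3% of all genes, and for 31 of 35 in the floxed section, against 28.3%. The oxidation genes had more UMIs, with a median of 9841 and 10230 per gene against 1401 and 1397 over all genes, and so narrower intervals.

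**Figure D3:**
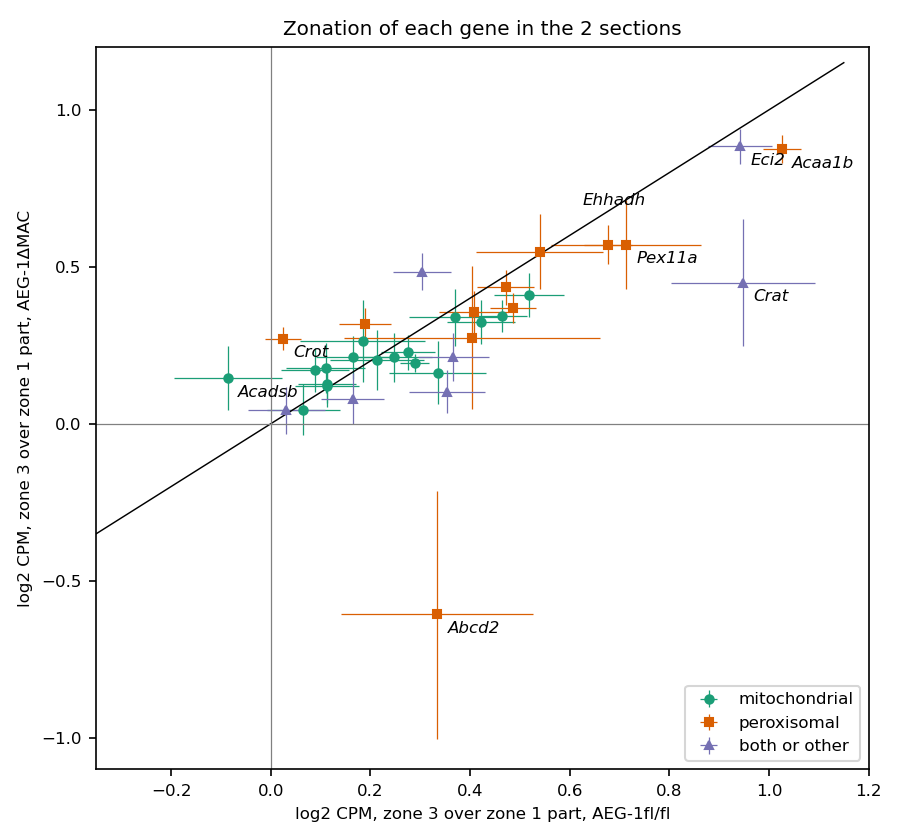
Log2 ratio of CPM between the zone 3 and zone 1 parts, AEG-1fl/fl on the x axis and AEG-1ΔMAC on the y axis, with 95% counting intervals in each direction, coloured by compartment; the diagonal marks equal zonation. Nearly all points lie above 0 on both axes, Acaa1b and Eci2 at the upper right, and Abcd2 alone lies below 0 on the y axis, at -0.61 against 0.33.

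A zone 3 ratio of at least 1.5-fold was reached by 2 of 35 genes in the knockout, against 2.94% of all genes, and by 5 of 35 in the floxed section, against 2.83%. Eci2 and Acaa1b were the 2 in the knockout. Eci2 went from 268 CPM in the zone 1 part to 369 in the middle part and 494 in the zone 3 part of the knockout, and from 182 to 232 and 350 CPM in the floxed section. Its zonation was 0.88 (0.83 to 0.94) and 0.94 (0.88 to 1.01). Acaa1b went from 434 to 572 and 796 CPM in the knockout and from 507 to 656 and 1032 CPM in the floxed section, with a zonation of 0.87 (0.83 to 0.92) and 1.03 (0.99 to 1.06). Both genes were thus higher in each step toward zone 3 in both sections. The 3 others that passed in the floxed section were Crat, Pex11a and Ehhadh.

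Ehhadh went from 233 to 294 and 346 CPM in the knockout and from 346 to 419 and 552 CPM in the floxed section. In plain CPM, not centred on the median gene, its zone 3 part in the knockout was thus at the level of the zone 1 part in the floxed section. Its zonation was 0.57 (0.51 to 0.63) and 0.68 (0.63 to 0.72). Pex11a went from 46.1 to 55.8 and 68.4 CPM in the knockout and from 35.3 to 42.5 and 57.8 CPM in the floxed section. Its zonation was 0.57 (0.43 to 0.71) and 0.71 (0.56 to 0.86), so the intervals overlapped although only the floxed section passed 1.5-fold. Acsl5 was nearly flat, with a zonation of 0.08 in the knockout and 0.16 in the floxed section. Cpt1a was flat too, at 0.04 and 0.07, with both intervals reaching 0.

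The peroxisomal set was more zoned than the mitochondrial set in both sections. The medians over genes were 0.37 and 0.20 in the knockout and 0.47 and 0.21 in the floxed section, for the peroxisomal and the mitochondrial set. The mitochondrial sum had a zonation of 0.22 (0.20 to 0.23) in the knockout and 0.26 (0.24 to 0.27) in the floxed section, with 0 of 17 genes at 1.5-fold in either. Its most zoned gene was Eci1, at 0.41 and 0.52. The peroxisomal sum had a zonation of 0.46 (0.44 to 0.48) and 0.49 (0.47 to 0.51). The difference between the sums, peroxisomal minus mitochondrial, was 0.24 (0.22 to 0.27) in the knockout and 0.23 (0.21 to 0.25) in the floxed section. Without Ehhadh and Acaa1b it was 0.13 (0.10 to 0.15) in the knockout and 0.02 (-0.01 to 0.05) in the floxed section, so in the floxed section the difference of the sums rested on these 2 genes. The median over the remaining 9 peroxisomal genes was 0.36 and 0.41. Crot, which makes carnitine esters, had the lowest zonation of that set in the floxed section, 0.03 (-0.01 to 0.06).

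**Figure D4:**
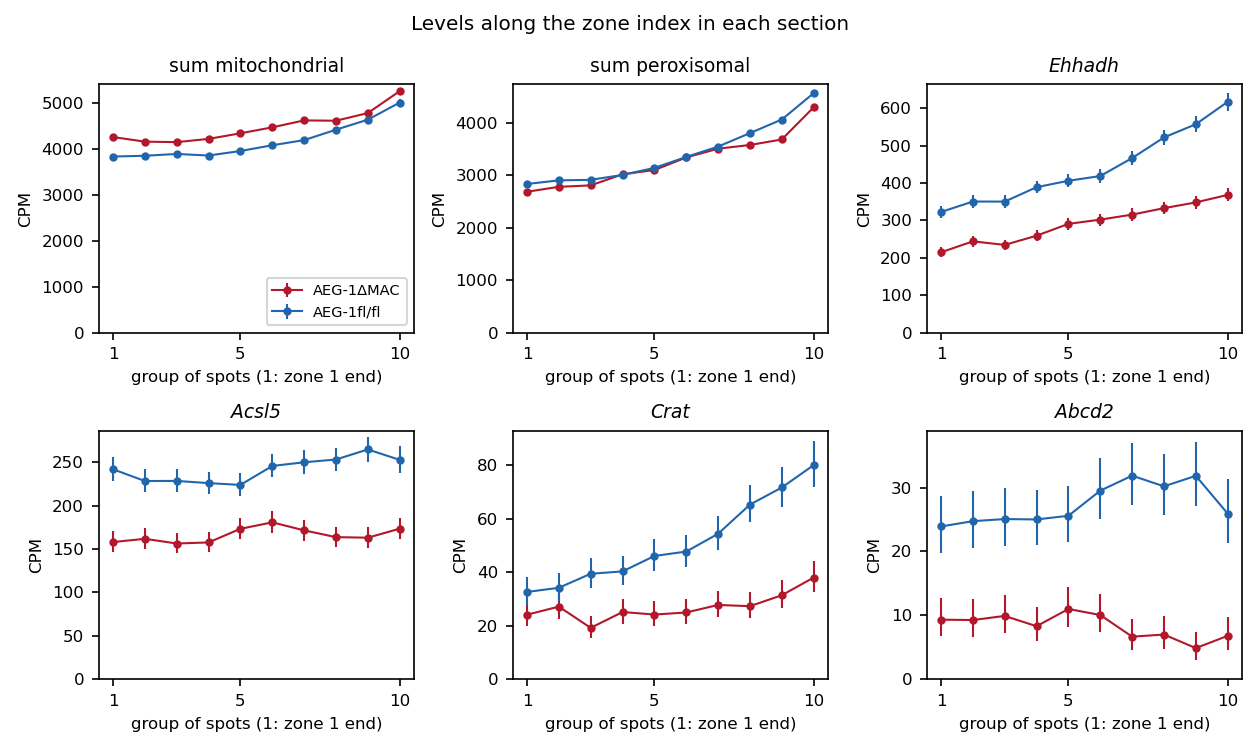
CPM with exact Poisson 95% intervals in 10 equal groups of spots ordered from the zone 1 end to the zone 3 end, for the summed mitochondrial and peroxisomal genes and for the 4 genes called between genotypes, in AEG-1ΔMAC (red) and AEG-1fl/fl (blue). The sums rise toward zone 3 in both sections, Ehhadh, Acsl5, Crat and Abcd2 are lower in AEG-1ΔMAC in every group, and Crat rises from 32.6 to 80.0 CPM in AEG-1fl/fl and from 24.1 to 38.0 CPM in AEG-1ΔMAC.

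Along 10 equal groups of spots the peroxisomal sum went from 2687 CPM at the zone 1 end to 4299 CPM at the zone 3 end in the knockout, and from 2836 to 4569 CPM in the floxed section. The mitochondrial sum went from 4262 to 5263 CPM and from 3838 to 5014 CPM. In both sections the group at the zone 3 end held the highest value of both sums. Per spot, the 35 genes together took a median of 0.901% of the UMIs in the knockout, with quartiles of 0.826% and 0.997%, and 0.868% in the floxed section, with quartiles of 0.779% and 0.974%. The middle of these ranges overlapped between the sections. The mitochondrial and peroxisomal shares of a spot were correlated across 2140 spots of the knockout (Pearson r = 0.515) and 2540 spots of the floxed section (r = 0.570). Spots of 1 section share their library, depth and zone gradient, so these are descriptions.

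Zonation differed between the sections for some genes. Of the 35, 23 were less zoned toward zone 3 in the knockout than in the floxed section, against 47.5% of all genes. The counting interval of the difference lay below 0 for 11, against 8.39% of all genes, and above 0 for 4, against 9.13%. Abcd2 had the largest difference. It stood at 9.22 CPM (139 UMIs) in the zone 1 part, 9.65 CPM (148 UMIs) in the middle part and 6.05 CPM (91 UMIs) in the zone 3 part of the knockout. In the floxed section the same parts held 24.2, 27.7 and 30.5 CPM. It was thus lowest in the zone 3 part of the knockout and highest in the zone 3 part of the floxed section. The zonation was -0.61 (-1.005 to -0.215) in the knockout and 0.33 (0.14 to 0.53) in the floxed section, a difference of -0.94 (-1.37 to -0.51). Abcd2 was 1 of 35 genes at 1.5-fold toward zone 1 in the knockout, against 2.03% of all genes, where the floxed section had 0 of 35, against 1.75%. With landmark genes in place of the study's zone markers its interval in the knockout reached 0, at -0.36 (-0.72 to 0.01), and with only the outer 10% of spots both intervals did.

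Crat went from 23.3 to 25.4 and 31.8 CPM along the 3 parts of the knockout and from 36.4 to 46.2 and 70.2 CPM along those of the floxed section. Its zonation was 0.45 (0.25 to 0.65) and 0.95 (0.80 to 1.09), a difference of -0.50 (-0.74 to -0.25). Toward zone 3 the gap between the sections therefore widened for both genes. Relative to the median gene of each part, from zone 1 to zone 3, the log2 genotype ratio of Abcd2 was -1.52, -1.68 and -2.48. That of Crat was -0.78, -1.02 and -1.29. For Ehhadh it was -0.70, -0.67 and -0.83. For Acsl5 it was -0.68, -0.61 and -0.78, so these 2 genes were lower by similar amounts in each part.

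**Figure D5:**
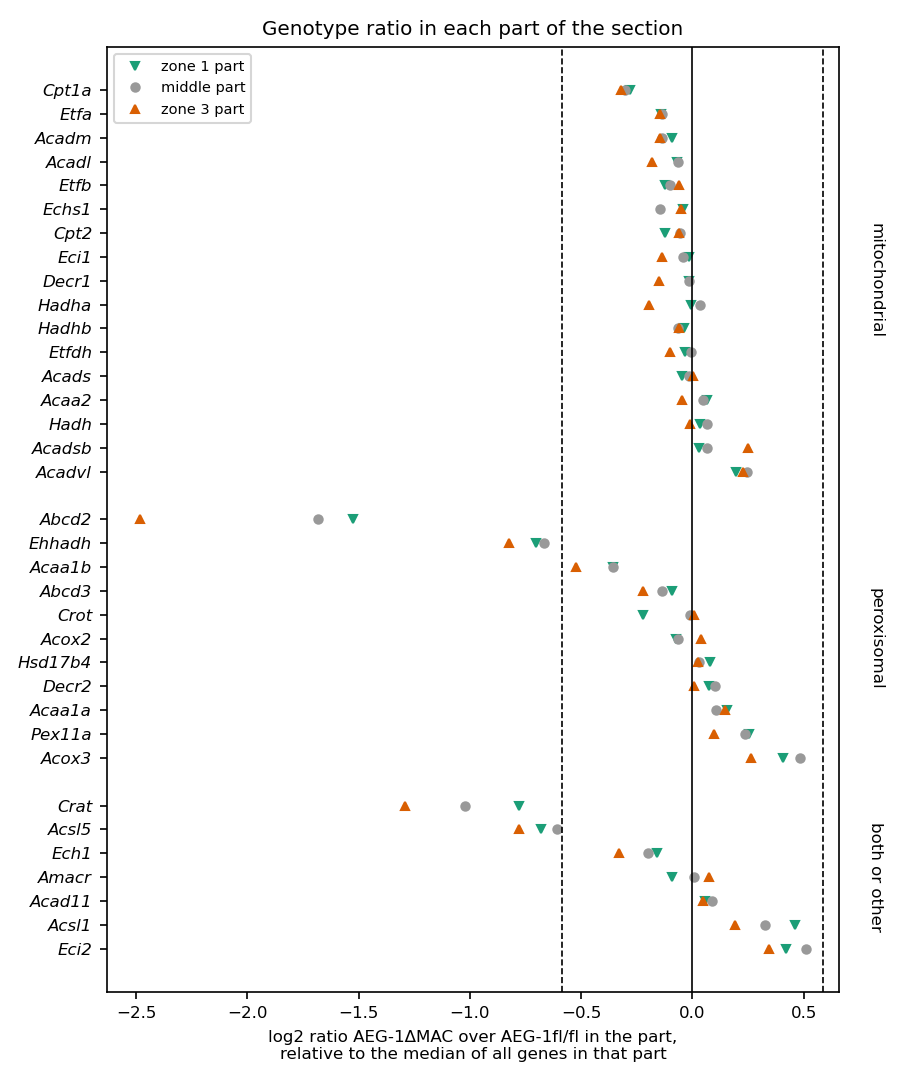
Log2 ratio of the CPM of AEG-1ΔMAC to that of AEG-1fl/fl, within the zone 1 part (downward triangles), middle part (circles) and zone 3 part (upward triangles) of the sections, relative to the median of all genes in the same part; dashed lines mark 1.5-fold. The 3 symbols lie close together for most genes and apart for Abcd2 (-1.52 to -2.48) and Crat (-0.78 to -1.29).

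The 4 genes more zoned toward zone 3 in the knockout were Crot, Acadsb, Amacr and Acox2. Crot stood at 691 CPM in the zone 1 part and 833 CPM in the zone 3 part of the knockout, against 735 and 748 CPM in the floxed section, and its difference in zonation was 0.25 (0.19 to 0.30). Acadsb differed by 0.23 (0.09 to 0.38), Amacr by 0.18 (0.10 to 0.26) and Acox2 by 0.13 (0.05 to 0.20). Among the genes less zoned in the knockout, Acsl1 differed by -0.25 (-0.35 to -0.15), and its genotype ratio went from 0.46 in the zone 1 part to 0.19 in the zone 3 part.

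Other genes of fatty acid oxidation were read from lists of related genes. Of 15 further mitochondrial genes tested, 1 was lower and 1 higher, with a median of 0.01. The lower was Acsl3, a synthetase of lipid droplets, at 11.7 CPM in the knockout and 16.8 CPM in the floxed section, and the higher was Acsm5, a medium chain synthetase, at 75.3 and 41.7 CPM. Of 19 further peroxisomal genes tested 0 were called, with a median of 0.09, from Pxmp4 at -0.48 to Nudt7 at 0.54. Summed over the 20 in the files, this list stood at 11404.5 CPM in the knockout against 9667 CPM in the floxed section. Its log2 ratio was 0.092 (0.087 to 0.098), and that of the summed further mitochondrial list was 0.039 (0.024 to 0.054). The lower sum of the 11 peroxisomal genes was thus not seen in this list. Median zonation was 0.17 in the knockout and 0.14 in the floxed section for the further peroxisomal genes, and 0.15 in both for the mitochondrial. From the zone 1 to the zone 3 part, the peroxisomal sum went from 10904 to 12183 and from 9469 to 10193 CPM. The mitochondrial sum went from 1400 to 1747 and from 1266 to 1526 CPM, so the stronger zonation of the peroxisomal set was not seen in these sums. Of 11 peroxins, the proteins that build peroxisomes, 0 were called, with a median of 0.09, from Pex13 at -0.11 to Pex26 at 0.34.

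Of 5 genes of omega oxidation, the cytochrome route that makes dicarboxylic acids, 1 was lower. This was Cyp4a14, at 86.3 CPM in the knockout against 151 CPM in the floxed section, a log2 ratio of -0.95 (-1.01 to -0.89). Cyp4a32 stood at -0.57, Cyp4a10 at 0.04 and Cyp4a12b at 0.16. The highest was Aldh3a2 at 0.19, and the median was 0.04. These genes were more zoned toward zone 3 than the 35, with medians of 1.31 in the knockout and 2.01 in the floxed section. Of 10 regulators of fatty acid oxidation tested, 1 was higher and 0 lower, with a median of 0.10. Ppara, the gene of PPAR-alpha, had the lowest ratio of the 10 tested, -0.19, at 160 and 165 CPM. Some genes of this list were under the 10 CPM minimum. Of these, the hormone gene Fgf21 (162 against 509 UMIs) and Ppard (239 against 701 UMIs) had lower ratios, -1.65 and -1.55. The others, Ppargc1a (306 against 271 UMIs) and Sirt1 (497 against 439 UMIs), both stood at 0.18, with intervals reaching 0. All of them are named after their values were seen. Lpin1, which codes for a phosphatidate phosphatase that also acts as a coactivator of PPAR-alpha, had the highest of the list, 1.97, at 119 CPM in the knockout and 27.6 CPM in the floxed section.

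Several other marker lists also differed between the sections, and their part in the ratios above was not tested. The 3 zone 3 markers used for the ranking were all higher in the knockout and summed to 8543 CPM against 3498 CPM, a log2 ratio of 1.14, whereas the zone 1 markers summed to 7060 against 5979 CPM, a log2 ratio of 0.09. Zone 3 parts of the 2 sections are therefore matched by rank and not by marker level. The 4 tested clock genes with an evening peak were all called higher in the knockout, from Tef at 1.19 to Dbp at 2.61, and Arntl, of the opposite phase, was lower at -0.86. Hepatocyte markers summed to a log2 ratio of -0.69, led by Alb at -0.84, with Ttr at -0.45 and Apoa1 at -0.41. The other hepatocyte markers went the other way, Apob at 0.14, Tat at 0.21 and Hnf4a at 0.32. Kupffer cell markers summed to -0.09, with Marco at -1.52, Vsig4 at -0.22, Clec4f at -0.10 and Cd5l at 0.06. Cholangiocyte, stellate cell and endothelial cell markers summed to -0.16, -0.15 and -0.17. Neutrophil markers summed to 2.68 CPM in the knockout and 15.8 CPM in the floxed section, T cell markers to a log2 ratio of 0.84, and B cell markers to 15.8 and 27.8 CPM. Erythroid markers summed to 711 and 845 CPM and muscle markers to 2.77 and 0.358 CPM. The muscle sum was nearly all Tnnt2, with 123 and 18 UMIs. Ckm had 3 and 0 UMIs, and Acta1, Myh6 and Mb had 0 UMIs in both sections. Of all these lists, only those of adipocytes, muscle, neutrophils and erythroid cells had a marker at 0 UMIs in a section.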

How the data were processed

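ST was performed by the authors on 1 AEG-1ΔMAC and 1 AEG-1fl/fl liver section, mounted on the same slide according to the labels. Per the labels, reads were processed with Space Ranger 2.0.1 against mm10, and Seurat 4.3.0 is also listed. The deposited files hold raw counts of UMIs for 19465 genes per spot, without normalization. Probe counts depend on probe binding, so levels were compared between sections gene by gene and not between genes.

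The 35 genes and all other lists were chosen with earlier results of these data known. Spots with at most 50000 UMIs and 100 to 7000 genes were kept, as in the study, leaving out 9 of 2149 spots from the first section and 3 of 2543 from the second. Counts were added up per library and per zone part (713, 713 and 714 spots in AEG-1ΔMAC and 846, 847 and 847 in AEG-1fl/fl). A level of 10 CPM equals 455 UMIs (AEG-1ΔMAC) or 503 UMIs (AEG-1fl/fl). With 1 library per genotype no hypothesis test was run. Ratios and intervals were computed with Python 3.11.15, numpy 2.4.6, scipy 1.17.1 and pandas 2.3.3, and were tested on simulated data. TMM factors came from edgeR 4.0.16 in R 4.3.3, which was used for nothing else. Plots were drawn with matplotlib 3.10.9.

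Values were printed for genes at least 1.5-fold apart between genotypes or between zones, for genes with opposite zonation, and for the highest and lowest ratio of each compartment. Abcd3, Hsd17b4, Acaa1a, Pex11a, Acsl1, Ech1, Acad11, Amacr, Hadha, Hadhb, Etfa, Etfb, Crot, Acadsb, Acox2 and Eci1 were given values after these had been seen. Of the other lists, the highest, the lowest and the called genes were named. Further marker, regulator and omega oxidation genes were given values after these had been seen. So were the sums and the zonation of the further mitochondrial and peroxisomal lists. Alternatives changed the scaling, the fold, the minimum level, the spots, the zone index and the genes summed. The sums without Ehhadh and Acaa1b, and the sums and medians not centred on the median gene, were added after seeing the data. The zone index correlated with one from landmark genes across spots at r = 0.871 (AEG-1ΔMAC) and 0.828 (AEG-1fl/fl). Promoter windows came from RefSeq on GRCm38.p6, and gene coordinates from GENCODE M21 on GRCm38, the assembly of mm10. Of the listed symbols, 8 were not matched. The ketogenesis list is not reported here.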

Additional observations from a re-analysis of the deposited data

Results flagged for a closer look

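Abcd2, the gene of a peroxisomal transporter of very long chain acyl-CoA, lay on opposite sides of no zonation in the 2 sections. Its log2 ratio of CPM between the zone 3 and zone 1 parts was -0.61 in AEG-1ΔMAC, toward zone 1, and 0.33 in AEG-1fl/fl, toward zone 3. The difference between the genotypes was not tested, since each had 1 section. With landmark genes as the zone index the AEG-1ΔMAC value was -0.36 (-0.72 to 0.01). With the outer 10% of spots it was -0.46 (-1.19 to 0.26), against 0.12 (-0.27 to 0.51) in AEG-1fl/fl. The AEG-1ΔMAC value rests on 139 UMIs in the zone 1 part and 91 UMIs in the zone 3 part.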

How the results depend on the processing

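No paired analysis was possible because each genotype had 1 library, and no library could be left out. Centring on the median gene cancels any library factor, so other scalings can differ only without it. Plain CPM turned the mitochondrial sum from -0.04 to 0.11, turned the median over the 35 genes from -0.06 to 0.087, and moved the peroxisomal sum from -0.20 to -0.052. With TMM and with median-of-ratios factors, not centred, the mitochondrial sum was -0.016 and -0.021 and the peroxisomal sum -0.18 and -0.18. Plain CPM also turned 14 single genes, 0 of them called, from below to above 0. The centred ratios of all 35 genes moved by less than their counting interval with all deposited spots, means over spots or spots matched on UMIs, although the last turned Acads and Amacr, both near 0. The outer 10% of spots turned the zonation of Cpt1a in the knockout from 0.04 to -0.015. Of the 35 genes, 4 were called at 1.5-fold, all lower in the knockout. At a lower minimum fold 7 were called, 5 lower and 2 higher, the higher being Eci2 and Acox3. The count was 2 at 2-fold and 2 among genes whose mean reached 50 CPM, all lower. Not centred on the median gene, it was 3 with plain CPM and 4 with each library factor, again all lower. No shares over all genes are given for the settings other than 1.5-fold, so their counts are not read as a trait of the 35 genes. With spots matched on UMIs the mitochondrial sum had a log2 genotype ratio of -0.048. Without the gene of each compartment with the most UMIs over both libraries, Acaa2 and Crot, the mitochondrial sum was at -0.061, the peroxisomal sum at -0.23, and the peroxisomal over mitochondrial difference at -0.17. The zonation of the peroxisomal sum without Crot was 0.52 in the knockout and 0.62 in the floxed section. Without Ehhadh and Acaa1b the peroxisomal genotype ratio was -0.049, the peroxisomal over mitochondrial difference -0.011, and the zonation of the peroxisomal sum 0.34 in the knockout and 0.28 in the floxed section. With the landmark zone index the mitochondrial sum had a zonation of 0.20 in the knockout, and the peroxisomal sum 0.41 in the knockout and 0.45 in the floxed section. With the outer 10% of spots at each end, which are farther apart by construction, the mitochondrial sum had 0.30 and 0.39 and the peroxisomal sum 0.68 and 0.69 in the knockout and the floxed section. The count of genes zoned at least 1.5-fold, 3 in the knockout and 5 in the floxed section, was then 11 in each. At the lower minimum fold it was 15 and 18, and at 2-fold 0 and 1. Shares over all genes are not given for these settings, so the counts are not read as a trait of the 35 genes. The cause was not tested elsewhere. Depth limits Abcd2 most, with 378 UMIs in the knockout, and no value here carries the spread between mice.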
